A study of Saccharomyces cerevisiae with 61 samples.

Results

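Top2 recovery without SPO11 was compared with wild type (WT) in budding yeast cells 3 h after transfer to sporulation medium at 30 °C. The comparison rests on 2 spo11 cultures and 3 WT cultures, chosen by their labels for genotype, time and temperature. Each culture has 1 Top2 chromatin immunoprecipitation (ChIP) library and 1 paired input library, so the comparison takes 10 of the 61 samples of the series, or 5 of its 14 spike-in cultures. The other 9 spike-in cultures serve only as a reference for some values: rec8 mutants at 3 h and 30 °C (n = 2), WT at 0 h and 30 °C (n = 3), and WT (n = 2) and the temperature-sensitive mutant top2-1 (n = 2) at 3 h and 34 °C. A peak list for Top2 in WT at 3 h is used at the end. The study mapped topoisomerases in meiosis of SK1, a strain that sporulates efficiently and synchronously. In every culture, WT and spo11 alike, fixed meiotic cells of the strain S288c had been mixed in at 20% before immunoprecipitation, and the reads were assigned to the SK1 or the S288c genome by sequence differences. The labels name the mutant spo11 without giving its allele, and the series' text speaks of biological replicates for its combined tracks, while the labels of the spike-in samples do not say whether their replicates were grown separately. Each ChIP and input pair is called a culture here, and p-values measure the spread between these samples, which may be partly technical.

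Spo11 is the topoisomerase-like enzyme that cuts both DNA strands to start meiotic recombination, and cells that lack it go through meiotic prophase without these programmed breaks. Top2 is the type II topoisomerase that passes 1 DNA duplex through a transient break in another, which relieves supercoils and untangles chromosomes. In meiosis it is a component of the proteinaceous chromosome axis, beside cohesin, and the loops from which Spo11 cuts are tied to that axis. The comparison addresses whether the amount of DNA recovered with Top2, over the genome and per chromosome, depends on Spo11.

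The 10 libraries held 1211564 to 4842002 reads, of which 212806 to 886852 were S288c reads. The libraries came from 3 flow cells, called B, C and D here. Flow cell C held spo11 replicate 1 and WT replicate 1, flow cell D held spo11 replicate 2 and WT replicate 3, and flow cell B held WT replicate 2 with no spo11 culture. Every count on flow cell C was an even number. WT replicate 3 is WT by its title and description, but its strain tag is that of the spo11 samples. The title was followed, and values without this culture stand beside several results. The counts per chromosome hold no value for the SPO11 locus itself, so the genotype could not be checked in them.

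Genome-wide, the amount of SK1 DNA recovered with Top2 relative to the spike-in did not differ between spo11 and WT cells beyond the spread between cultures. For each culture, the ratio of SK1 to S288c reads in the ChIP was divided by that ratio in the input, which gives a spike-in scaled Top2 ratio. This ratio was 1.28 in WT replicate 1, 1.52 in WT replicate 2 and 1.20 in WT replicate 3. It was 1.25 in spo11 replicate 1 and 1.47 in spo11 replicate 2. Both spo11 cultures lay inside the range of the WT cultures.

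The group values were 1.33 ± 0.167 (SD, n = 3) in WT and 1.36 ± 0.153 (SD, n = 2) in spo11. The difference of mean log2 ratios, spo11 minus WT, was 0.037, or 1.03-fold, against a pooled SD of 0.17 (two-sided exact permutation test, p = 1, where 2 cultures against 3 can reach no lower than 0.2). Taken culture by culture, the difference ran from -0.27 to 0.30 on the log2 scale, and the largest difference between a pair of WT cultures was 0.34. Without WT replicate 3 the difference was -0.035. The counting standard error of a culture's log2 ratio was 0.0026 to 0.0047, which covers counting only and is too small on flow cell C if each fragment was counted more than once there.

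**Figure D1:**
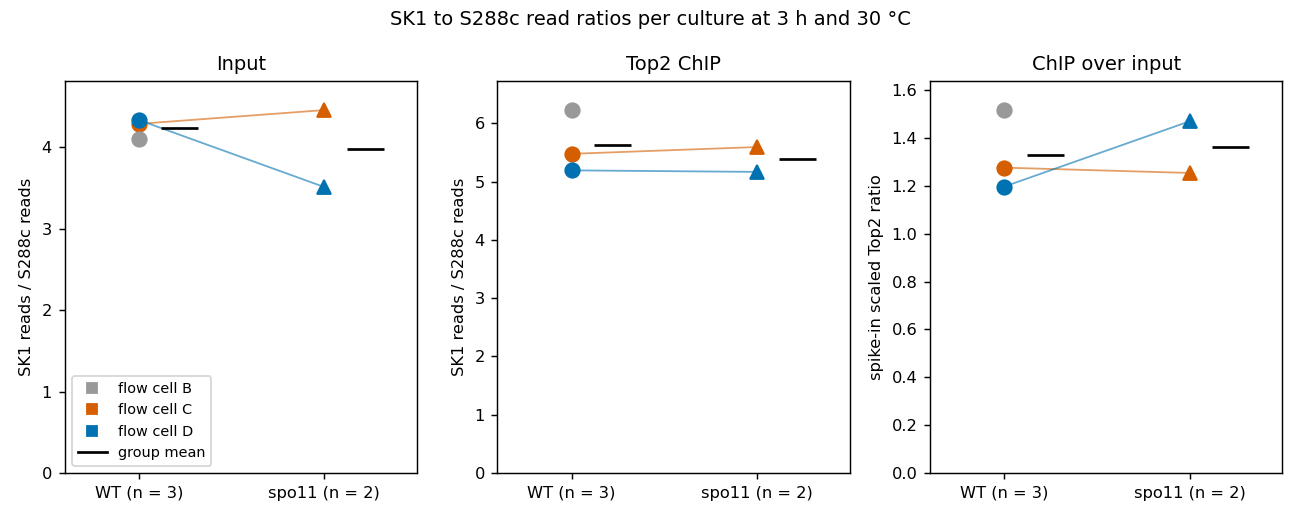
SK1 reads per S288c read in the input (left), in the Top2 ChIP (middle) and the ChIP ratio divided by the input ratio (right), 1 point per culture, coloured by flow cell, with short bars for group means and lines joining the cultures of a flow cell. In the right panel the spo11 cultures, at 1.25 and 1.47, lie inside the WT range of 1.20 to 1.52.

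The flow cells gave different answers, and on flow cell D spo11 and WT differed more in the input ratio than in the ChIP ratio. On flow cell C the log2 ratio of spo11 was 0.025 below WT (-0.025), and on flow cell D it was 0.30 above WT, with counting standard errors of 0.0038 and 0.0065. In the ChIP alone, the SK1 to S288c read ratio was 5.59 in spo11 and 5.48 in WT on flow cell C, and 5.17 in spo11 and 5.19 in WT on flow cell D. The ChIP ratios therefore differed by 0.030 and -0.0074 on the log2 scale. In the input, the ratio was 4.46 in spo11 and 4.29 in WT on flow cell C, a log2 difference of 0.056. On flow cell D it was 3.51 in spo11 and 4.34 in WT, a log2 difference of -0.30. Both ratios vary with the amount of spike-in mixed in, and where the difference arose was not tested.

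The input of spo11 replicate 2 had the highest share of spike-in reads of the 5 inputs. S288c reads made up 22.2% of that input, 18.3% of the input of spo11 replicate 1, and 18.7 to 19.6% of the WT inputs. The ChIP ratio without input division was 5.63 ± 0.535 (SD, n = 3) in WT and 5.38 ± 0.302 (SD, n = 2) in spo11. WT replicate 2, the only one of these 5 cultures from flow cell B, had the highest ChIP ratio, at 6.23.

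The rec8 mutant, which lacks the meiosis-specific cohesin subunit of the axis, was the other mutant at the same time and temperature. Its 2 cultures had scaled ratios of 1.38 and 1.43, and both came from flow cell D, where spo11 replicate 2 had 1.47 and WT replicate 3 had 1.20. The difference of mean log2 ratios, spo11 minus rec8, was -0.049 against a pooled SD of 0.12 (two-sided exact permutation test, p = 1; smallest possible 0.33). The sign of this difference came from the spo11 culture of flow cell C: on flow cell D alone, spo11 was 0.065 above the rec8 mean on the log2 scale, and above both rec8 cultures. On flow cell D, both rec8 cultures and the spo11 culture were thus above the WT culture at this time and temperature, the one whose strain tag disagrees with its title. In the ChIP alone the rec8 ratios were 4.07 and 5.14, below the 5.19 of that WT culture, and their input ratios were 2.94 and 3.60 against 4.34. The rec8 ChIP ratios were thus below that WT culture, and their input ratios were lower by more. Where these differences arose was not tested.

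Chromosome XII carries the ribosomal DNA repeats, and its share of the spike-in reads moved with the flow cell. In the inputs, XII took 11.2% of S288c reads in WT and 11.7% in spo11 on flow cell C. On flow cell D it took 19.4% in WT and 18.5% in spo11, and on flow cell B 19.3%. The SK1 share of XII in the same inputs stayed between 7.65% and 7.89%. Leaving XII out gave scaled ratios of 1.28, 1.57 and 1.23 in WT and 1.26 and 1.54 in spo11, in the order of replicates, so that the spo11 values again lay within the WT range. XII was left out of the S288c fits below for this reason.

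Along the SK1 genome, the distribution of Top2 over chromosomes in spo11 followed that of WT. For each chromosome, its share of SK1 ChIP reads was divided by its share of SK1 input reads and put on the log2 scale. WT means ran from below zero for XII, VIII and VI to above zero for V, XI and VII, with an SD of 0.047 over the 16 chromosomes, and spo11 means had an SD of 0.054. The differences spo11 minus WT had an SD of 0.014 and ran from -0.020 to 0.027. Across the 16 chromosomes, the spo11 and WT mean profiles had a Pearson r of 0.973 and a Spearman rho of 0.988, which is a description, since chromosomes of a library share its reads and are not independent replicates.

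No SK1 chromosome passed the test for a changed share between spo11 and WT. The edgeR quasi-likelihood test called 0 of 16 chromosomes at an adjusted p under 0.05 (0%), and 0 at an unadjusted p under 0.05. DESeq2 also called 0, with 1 at an unadjusted p under 0.05.

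**Figure D2:**
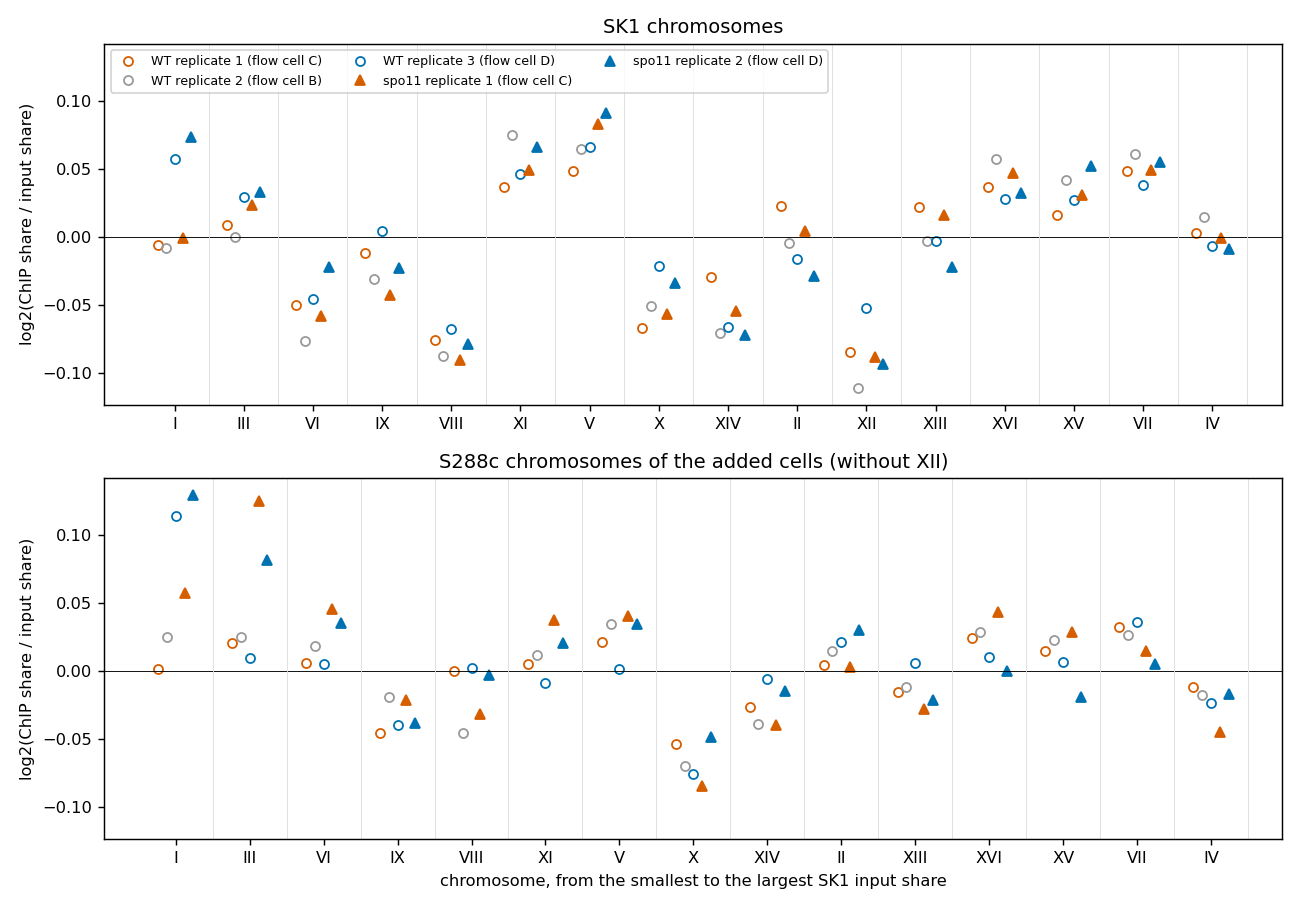
log2 of the ChIP share over the input share of each chromosome, for SK1 chromosomes (top) and for S288c chromosomes of the added cells without XII (bottom), 1 symbol per culture, open for WT and filled for spo11, coloured by flow cell. The cultures follow one another over the SK1 chromosomes, while both spo11 cultures stand above the WT cultures at S288c chromosome III (0.125 and 0.081 against 0.010 to 0.025).

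The highest estimate was on chromosome V. Its SK1 value was 0.048, 0.064 and 0.066 in WT replicates 1, 2 and 3, and 0.083 and 0.091 in spo11 replicates 1 and 2. Both spo11 cultures were above every WT culture, and V was the only SK1 chromosome of 16 on which the groups did not overlap. The edgeR estimate was 0.027 ± 0.017 (SE) on the log2 scale with an adjusted p of 0.898. Without WT replicate 3 it was 0.031.

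The lowest estimate was on chromosome IX. Its values were -0.012, -0.031 and 0.0039 in WT and -0.043 and -0.023 in spo11. The groups overlapped, and the edgeR estimate was -0.020 ± 0.020 (SE), with an adjusted p of 0.898. Without WT replicate 3 it was -0.013, and without spo11 replicate 1 it was -0.0097.

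The 3 shortest chromosomes, I, VI and III, are those on which meiotic breaks and axis proteins are known to be denser per length in WT. The SK1 input shares of I and VI moved with the flow cell. On flow cell C, I took 1.55% of SK1 input reads in WT and 1.60% in spo11, and VI took 3.01% and 3.00%. On flow cells B and D, I took 1.79 to 1.86% and VI took 3.63 to 3.69%. Chromosome I had values of -0.0060, -0.0080 and 0.057 in WT and -0.0010 and 0.074 in spo11. It separated by flow cell and not by genotype: both cultures of flow cell D were high and the other 3 were near zero. Chromosome III had values of 0.0083, 5.4e-06 and 0.029 in WT and 0.024 and 0.033 in spo11, and chromosome VI had -0.050, -0.077 and -0.045 in WT and -0.058 and -0.022 in spo11. The edgeR estimates were 0.019 for I, 0.016 for III and 0.016 for VI, each with an adjusted p of 0.898. With each culture left out in turn, I ran from -0.014 (without spo11 replicate 2) to 0.061 (without spo11 replicate 1), VI from -0.00081 to 0.035 with the same cultures left out, and III from 0.010 to 0.023. Without WT replicate 3, the estimate for I was 0.038.

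Chromosome VIII, which carries the SPO11 gene, had values of -0.076, -0.088 and -0.068 in WT and -0.090 and -0.079 in spo11, with an edgeR estimate of -0.0078. Chromosome IV, the longest, had 0.0024, 0.015 and -0.0069 in WT and -0.0013 and -0.0090 in spo11, with an estimate of -0.0084. Chromosome XII had -0.085, -0.11 and -0.053 in WT and -0.089 and -0.094 in spo11, with an estimate of -0.0079. On VIII, IV and XII the groups overlapped, and none passed the test. The XII estimate had no stable sign: it was 0.0067 without WT replicate 3 and -0.022 without WT replicate 2. VIII and IV stayed below zero with each culture left out, from -0.013 to -0.0017 and from -0.013 to -0.0029.

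The contrast within flow cells gave small differences of mostly the same sign. On flow cell C the differences ran from -0.031 to 0.035 and on flow cell D from -0.041 to 0.025. They had the same sign on 14 of the 16 SK1 chromosomes, 7 higher in spo11 and 7 lower. The differences on C and on D, which share no culture, had a Pearson r of 0.592 and a Spearman rho of 0.612 over the 16 chromosomes. Over the 15 S288c chromosomes without XII the Pearson r was 0.646 and the Spearman rho 0.543, with the same sign on 10. S288c chromosome III stood apart there, at 0.105 on C and 0.071 on D. How much of this r rests on III was not tested. Some agreement between the flow cells was thus also present in S288c, with fewer shared signs than in SK1. The differences of group means had a Pearson r of 0.573 between SK1 and S288c. On flow cell D the WT culture was replicate 3, whose strain tag is that of the spo11 samples. With the flow cell as a term, edgeR still called 0 of 16, with 4 (V, IX, XII and XV) at an unadjusted p under 0.05 and a lowest adjusted p of 0.114.

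**Figure D3:**
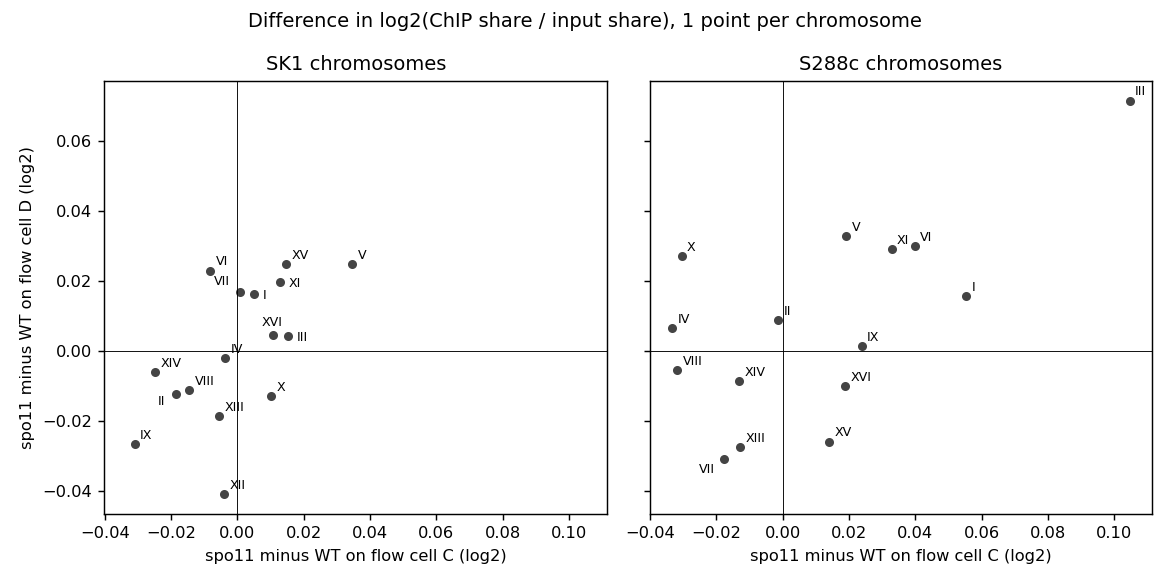
Difference in log2 ChIP share over input share, spo11 minus WT, on flow cell C (horizontal) and flow cell D (vertical), 1 point per chromosome, for SK1 (left) and S288c (right). SK1 differences stay between -0.041 and 0.035, and S288c chromosome III stands apart at 0.105 and 0.071.

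The added S288c cells are the control, since the labels give no spo11 mutation for them. Of 15 S288c chromosomes tested, edgeR called 1 (6.67%), chromosome III, which carries the mating type locus. Its log2 ChIP over input share was 0.020, 0.025 and 0.010 in WT replicates 1, 2 and 3, and 0.125 and 0.081 in spo11 replicates 1 and 2. Both spo11 cultures lay above all 3 WT cultures, by 0.105 on flow cell C and 0.071 on flow cell D. The edgeR estimate was 0.092 ± 0.022 (SE), with an adjusted p of 0.0131.

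On S288c chromosome III, the input share was lower in both spo11 cultures than in every WT culture, and the ChIP shares of the groups overlapped. It took 2.31% and 2.22% of S288c input reads in spo11 replicates 1 and 2, against 2.42%, 2.36% and 2.37% in WT. In the ChIP it took 2.52% and 2.35% in spo11, against 2.45%, 2.40% and 2.39% in WT. On flow cell C the ChIP share was thus higher and the input share lower in spo11 than in WT, and on flow cell D both shares were lower in spo11. These shares rest on 3907 to 18076 reads per library.

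The call on S288c chromosome III depended on the setting. It was kept in 8 of 15 alternative settings, with an estimate above zero in all 15 (0.062 to 0.106) and adjusted p from 0.00122 to 0.946. It was lost with DESeq2 (adjusted p = 0.542), with XII kept in the fit (0.946), with the cultures of all groups in 1 fit (0.0525), with a replicate block, and when any of 3 cultures was left out, WT replicate 1 (0.161), WT replicate 3 (0.0557) or spo11 replicate 1 (0.33). With a spo11 culture left out, the other is assumed to vary as the WT cultures do, which holds both for this lost call and for the call kept without spo11 replicate 2. Another of the kept calls used a minimum of 10 counts, which removed no chromosome and so repeats the main fit. With the even counts of flow cell C halved, edgeR also kept the call, with an estimate of 0.088 and an adjusted p of 0.0231. The fit without the dispersion floor also kept the call, although edgeR's deviances failed there. In the 9 spike-in cultures of other groups, the S288c III value ran from -0.0072 to 0.093, so that spo11 replicate 2 lay within that range and spo11 replicate 1 above it.

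On the other S288c chromosomes no call was made. The groups did not overlap on 5 of the 15, with spo11 above WT on III, VI and XI and below WT on VII and XIII, beside the 6.67% called. S288c VI was 0.0057, 0.019 and 0.0054 in WT and 0.046 and 0.035 in spo11 (estimate 0.032, adjusted p = 0.367). The lowest estimate was on VII, at 0.032, 0.026 and 0.036 in WT and 0.014 and 0.0051 in spo11 (estimate -0.021, adjusted p = 0.367). S288c I was 0.0016, 0.025 and 0.11 in WT and 0.057 and 0.13 in spo11 (estimate 0.045, adjusted p = 0.409), again high on flow cell D in both genotypes. The estimates for S288c IV and VIII were -0.015 and -0.0072, and both turned sign in at least 1 of 5 fits with a culture left out. S288c differences had the same sign on flow cells C and D for 10 of 15 chromosomes, 6 higher and 4 lower in spo11.

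The chromosome-matched ratio divides each SK1 chromosome by its S288c counterpart in ChIP and input, so that what both genomes share cancels. All 15 chromosomes other than XII overlapped between the groups. WT replicate 2 and spo11 replicate 2 were high on each of them, and the other 3 cultures were low. The edgeR fit called 0 of 15 chromosomes beyond the genome-wide ratio (0%), with 1 at an unadjusted p under 0.05. That chromosome was III, with an estimate of -0.075 ± 0.026 (SE) and an adjusted p of 0.0845.

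The III estimate was below zero in 14 of 14 alternatives, between -0.095 and -0.041, and III was called in 4 of them, DESeq2 among these (adjusted p = 0.0129). The 4 include the fit without the dispersion floor, where edgeR's deviances failed. Without WT replicate 3 it was -0.064, with an adjusted p of 0.375. With the even counts of flow cell C halved it was -0.072, with an adjusted p of 0.123. Its 2 parts differed in size, since the SK1 share of III was 0.016 higher in spo11 and the S288c share 0.092 higher. The highest estimate in the matched fit was on VII, at 0.023, and I and VI had estimates of -0.029 and -0.020. The estimates for IV and VIII were 0.0057 and -0.0030, and those of IV, VI and VIII turned sign in at least 1 of 5 fits with a culture left out. The matched log2 ratio of XII was 0.300, 0.342 and 0.061 in WT and 0.223 and 0.222 in spo11.

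**Figure D4:**
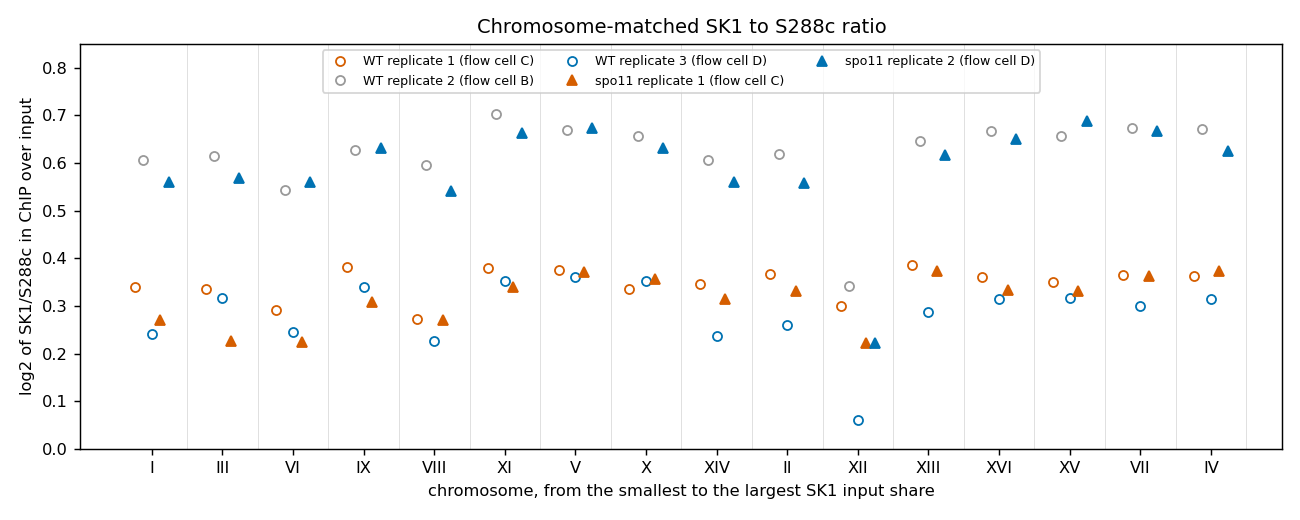
log2 of the chromosome-matched SK1 to S288c ratio in ChIP over input, 1 symbol per culture and chromosome, open for WT and filled for spo11, with the smallest chromosomes at the left. WT replicate 2 and spo11 replicate 2 run together above the other 3 cultures on all chromosomes except XII, where spo11 lies at 0.223 and 0.222.

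The dependence on chromosome size was measured as the slope of the log2 chromosome value on log10 of a chromosome's average share of SK1 input reads, a stand-in for length, where a negative slope means relatively more Top2 on short chromosomes. The stand-in does not order all short chromosomes by length. VI had 3.47% of SK1 input reads and III 2.26%, while the last Top2 peak ended at position 290988 on VI and 332076 on III. Over the SK1 chromosomes the slope was 0.035, 0.058 and -0.030 in WT replicates 1, 2 and 3, and 0.034 and -0.044 in spo11 replicates 1 and 2. Among these cultures the sign followed the flow cell. Of the other groups on flow cell D, the rec8 and top2-1 cultures were below zero, but WT replicate 3 at 0 h had 0.030. Within flow cells, spo11 minus WT was -0.00047 on C and -0.013 on D. Pooled, the difference was -0.026 (two-sided exact permutation test, p = 0.4, adjusted over 5 tests 0.667), with groups that overlap.

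The slopes of the S288c control were set beside those of SK1. Over the S288c chromosomes it was 0.0056, -0.018 and -0.065 in WT and -0.112 and -0.139 in spo11. Both spo11 cultures were below all WT cultures, by 0.117 on flow cell C (-0.117) and 0.074 on flow cell D (-0.074). The difference was -0.100 (two-sided exact permutation test, p = 0.2, the smallest possible; adjusted 0.5), and -0.119 without WT replicate 3. In the WT cultures at 34 °C the same S288c slope was -0.133 and -0.145 and in rec8 -0.112 and -0.064, so that values like those of spo11 also occurred in cultures of other groups.

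The slope of the matched ratio was 0.046, 0.098 and 0.045 in WT and 0.164 and 0.113 in spo11. The groups did not overlap, with a difference of 0.075 (two-sided exact permutation test, p = 0.2, the smallest possible; adjusted 0.5), of 0.118 on flow cell C and 0.068 on flow cell D. Without WT replicate 3 it was 0.066. With size taken from the end of a chromosome's last Top2 peak, the difference was 0.067 (two-sided exact permutation test, p = 0.4). The groups were then no longer fully separated. In this ratio the S288c slope enters with its sign turned, and the SK1 slope differed by 0.013 or less within flow cells. In cultures of other groups the matched slope reached 0.119 (WT at 0 h, replicate 3) and 0.120 (top2-1 replicate 2). These values are above spo11 replicate 2, and no culture of those groups reached spo11 replicate 1.

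**Figure D5:**
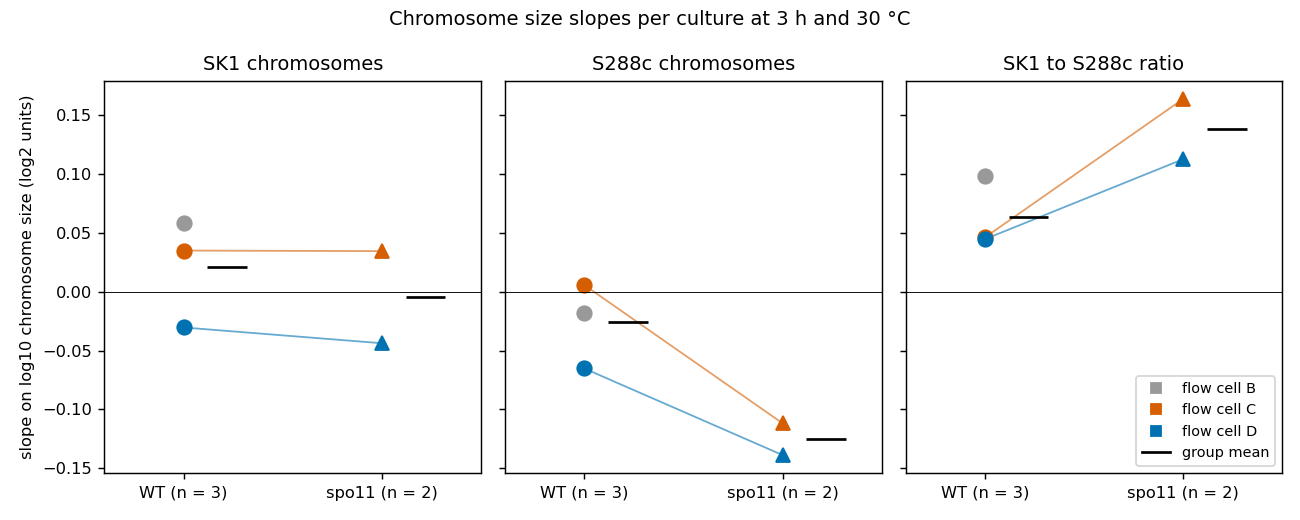
Slope of the log2 chromosome value on log10 chromosome size (log2 units per 10-fold in size) per culture, for SK1 chromosomes, S288c chromosomes and their matched ratio, with colours for flow cells, lines joining the cultures of a flow cell and short bars for group means. The SK1 slopes nearly coincide on flow cell C (0.035 in WT and 0.034 in spo11) and differ more on D (-0.030 and -0.044). For S288c, spo11 lies below WT, and for the matched ratio it lies above WT.

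The authors' peak list for Top2 in WT at 3 h, which combines 2 replicates, gives the regions of Top2 enrichment on the SK1 chromosomes. Its peaks covered between 15.1% (VI) and 18.8% (V) of a chromosome up to its last peak. Across the 16 chromosomes, this coverage had a Pearson r of 0.439 with the mean SK1 value in WT, 0.321 with that in spo11 and -0.243 with their difference, as a description over chromosomes. V, the chromosome with the highest peak coverage, was also the one with the highest estimate in spo11, and VI, with the lowest coverage, had an estimate of 0.016.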

How the data were processed

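Values per library are counts of reads per chromosome of a joint SK1 and S288c reference, deposited by the authors without normalization (whole numbers, from the values). Per the submitters' processing notes, Bowtie and MACS2 2.1.1 were used; aligner settings are not given in the sources used here. The row for unassigned reads was 0. Per the labels, cells were fixed with formaldehyde and sequenced as single-end reads. The deposited Top2 peak list holds a fold enrichment, a ratio, and a −log10 q-value per peak, made by the authors; only peak positions were used for coverage.

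Ratios and slopes were computed in Python 3.11.15 (numpy 2.4.6, pandas 2.3.3, scipy 1.17.1, matplotlib 3.10.9) and tested by two-sided exact permutation, with Benjamini-Hochberg adjustment over 5 tests. For the chromosome shares, the quasi-likelihood test of edgeR 4.0.16 (R 4.3.3) had a ChIP-by-genotype term and a term per culture, with a dispersion floor of 0.0001, because edgeR's deviances failed below it. In the main SK1 and S288c fits the highest estimated dispersion was 9.77e-05. The floor was therefore the dispersion used for every chromosome in those fits. An SE is the estimate over the root of its F statistic. DESeq2 1.42.0 and limma 3.58.1 were alternatives. The edgeR scripts were tested on simulated data whose dispersion equalled the floor of 0.0001 and which held no flow cell differences. That simulation does not show how the tests behave at the spread of the real libraries. All 8 pairs of replicate libraries differed by more than counting noise (chi-square of at least 412 on 31 degrees of freedom).

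The comparison, its lists and its tests were chosen with earlier results of these data known. Named chromosomes were I, III, VI, IV, VIII and XII, the largest rise and fall in each fit, and any with an unadjusted p under 0.05. Transcript levels, Top1 peaks, other tracks and gene-level values were not used here.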

Additional observations from a re-analysis of the deposited data

How the results depend on the processing

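The genome-wide spo11 minus WT log2 difference changed sign without input correction (-0.063), with the replicate block (-0.035) and with cultures left out (-0.078 to 0.15). The spo11 minus rec8 difference became 0.23 without input correction and ran from -0.16 to 0.065 with cultures left out. The SK1 slope difference was 0.0087 without chromosomes I, III and VI, and ran from -0.065 to 0.014 with cultures left out. The S288c and matched slope differences kept their direction in 10 of 10 alternatives each. For the culture leave-outs and the blocks this was fixed in advance, because the groups did not overlap. Without chromosomes I, III and VI the differences were -0.057 and 0.068. With a median-based (Theil-Sen) slope they were -0.102 and 0.078. The count of SK1 chromosomes called was 0 in all 16 alternatives. The S288c count was 0 with DESeq2, with XII kept, with the replicate block (III at adjusted p = 0.727) and with all cultures in 1 fit, 2 (III and XI) without the dispersion floor, and 0 to 2 with cultures left out. The matched count was 1 (III) with DESeq2, with limma, without the floor and with all cultures in 1 fit. The cause of these changes was not tested. Taking the S288c total as library size adds the genome-wide difference to every SK1 chromosome (0.037 to 0.040), so that the 8 estimates below zero came above it by construction. Replicate numbers 1 and 2 occur in both groups, but number 2 lies on different flow cells. The deviations of same-numbered cultures over SK1 chromosomes had r of 0.698 and -0.203, so the numbers were not taken as pairs. The cultures sharing flow cell C, which are those numbered 1, had r of 0.698, and those sharing flow cell D had 0.727. Over S288c chromosomes the flow cell pairs had 0.399 and 0.715. The main tests have no flow cell term. A minimum of 10 counts removed no chromosome, so that this setting repeats each main fit. Without the dispersion floor edgeR's deviances failed, and some SK1 chromosomes had no finite SE. Counts over settings include both. Chromosome length from a reference sequence was not run; the last Top2 peak end, chosen after seeing the data, stood in for it and gave slope differences of -0.028, -0.094 and 0.067 (exact permutation p of 0.6, 0.2 and 0.4) for SK1, S288c and the matched ratio. With 2 against 3 cultures no exact test can pass 0.05.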
